A study of Mus musculus with 2 samples.

Results

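Natural killer cells of the mouse meninges were examined in 2 single-cell RNA libraries, 1 from animals with a mild traumatic brain injury (TBI) and 1 from animals with a Sham procedure. A cell was counted as a natural killer cell where it held UMIs of at least 2 of the 5 genes Ncr1, Klrb1c, Klrd1, Klrk1 and Gzma, 1 of them being Ncr1 or Klrb1c, and no UMI of Cd3d, Cd3e, Cd3g, Cd79a, Il1rl1 or C1qa, which mark T cells, B cells, group 2 innate lymphoid cells and macrophages. A UMI (unique molecular identifier) stands for 1 captured mRNA molecule. Of 5816 cells that passed the filters, 159 met this rule, 84 in the Sham library and 75 in the TBI library. Both libraries came from male C57BL/6 wild-type mice (C57BL/6J in the study's methods). The mice were 10 weeks old by the sample labels (an age field of the same labels gives 10-12 weeks). Each library was made 1 week after the procedure from the dorsal meninges of 5 mice that were pooled before capture. The study's methods place this region away from the site of the hit. The TBI group received a single closed-skull impact, the Sham group the procedure without the impact. Since 1 pooled library stands for each group, no difference between TBI and Sham has a replicate check. Every interval given here is a 95% interval that covers counting error only, and no test was run. The intervals are exact, except those of a difference between 2 shares, which are approximate and combine the exact bounds of both shares.

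Natural killer cells are innate lymphocytes that kill stressed, infected or transformed cells without rearranged antigen receptors. They read target cells through activating receptors (NKp46, encoded by Ncr1, and NKG2D, encoded by Klrk1) and through inhibitory receptors that bind MHC class I, among them CD94 (Klrd1) paired with NKG2 proteins and members of the Ly49 family (Klra genes), which each cell expresses in its own combination. Killing uses perforin (Prf1), which opens the target membrane, and granzymes (Gzma, Gzmb), which enter through it. Activated cells also release interferon gamma and the chemokines CCL3, CCL4, CCL5 and XCL1.

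The rule gene Ncr1 and the leading gene Gzmb are shown by the sequence of their start sites, because both windows hold short motifs of factor families with known roles in these cells, the T-box factors (T-bet and Eomes) and the Runx factors. Each line runs 5′ to 3′ on the gene's strand from 250 bases before to 50 bases after the annotated start (RefSeq, GRCm38.p6), at chr7:4337465-4337764 on the plus strand for Ncr1 and chr14:56262285-56262584 on the minus strand for Gzmb. Capitals mark the letters TCACAC (T-box core) and TGTGGTT (Runx) or their reverse complements GTGTGA and AACCACA.
Ncr1: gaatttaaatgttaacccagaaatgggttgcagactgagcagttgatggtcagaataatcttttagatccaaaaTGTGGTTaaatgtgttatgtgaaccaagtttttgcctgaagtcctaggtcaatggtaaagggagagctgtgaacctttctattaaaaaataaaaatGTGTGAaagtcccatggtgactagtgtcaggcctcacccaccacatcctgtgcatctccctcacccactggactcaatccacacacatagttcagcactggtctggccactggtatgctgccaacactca
Gzmb: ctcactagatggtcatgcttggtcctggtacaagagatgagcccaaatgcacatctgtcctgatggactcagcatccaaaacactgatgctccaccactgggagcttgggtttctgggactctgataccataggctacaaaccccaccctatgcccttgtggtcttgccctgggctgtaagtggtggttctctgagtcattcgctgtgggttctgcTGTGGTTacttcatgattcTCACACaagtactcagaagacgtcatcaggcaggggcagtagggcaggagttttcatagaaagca
A promoter was found for 17 of the 20 genes made up of the 5 rule markers and the 15 leading genes described next. On either strand, 6 of the 17 (35.3%) held TGTGGTT, against 5.27% of 32851 promoters of the same length. A gene of the 17 was counted where any of its windows matched, and some had more than a single window. The shares of all promoters are of single promoters, so the shares set side by side here were not counted alike. TCACAC stood in 3 of the 17 (17.6%), against 14.5% of all promoters. GGAA, the core of Ets motifs, stood in 15 of the 17 and in 96.0% of all, and the longer T-box motif AGGTGTGA, which contains GTGTGA, in none of the 17 and in 1.28% of all. These are matches of letters, not mapped binding sites.

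The natural killer cells were sampled at a usable but modest depth. The Sham library held 2699 barcodes and 9527334 UMIs, of which 2043 cells passed the filters, and the TBI library held 4349 barcodes and 15011079 UMIs, of which 3773 passed. The 84 Sham natural killer cells had 300959 UMIs (530 to 24026 per cell, median 3244.5) and the 75 TBI cells 253352 (730 to 12597, median 2952). The median number of genes was 1510 and 1430. Levels are given as UMIs of a gene per 1000000 UMIs of these cells in that library (CPM). A gene with no UMI could have been present at up to 9.97 CPM in Sham and 11.8 CPM in TBI, the level of 3 counts. The deepest single cell held 7.98% of the Sham and 4.97% of the TBI UMIs, so the share of a gene's UMIs that came from 1 cell is given for the genes where it moved a value most. The 2 libraries shared 20 barcodes among all and 14 among filtered cells, none of them a natural killer cell. Pairs of values are given with Sham first and TBI second, unless stated.

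The 5 markers that chose the cells are given as a description. Ncr1 stood at 1406 CPM in Sham (1275 to 1546) and 1279 in TBI (1143 to 1426), with UMIs in 90.5% and 90.7% of cells. Klrb1c, which encodes NK1.1, stood at 1203 and 1046 CPM, in 91.7% and 92.0% of cells. Klrd1 stood at 1047 and 841 CPM and Klrk1 at 1123 and 999 CPM. Gzma, a granzyme, stood at 9855 CPM in Sham (9504 to 10216) and 7152 in TBI (6827 to 7489), and 73.8% and 65.3% of cells held it. All 5 were seen together in 80 of the 159 cells (50.3%). Another 51 held 4, 17 held 3 and 11 held exactly 2, the last group being shallow cells with a median of 945 UMIs.

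Cells on either side of the rule were compared by Nkg7, a granule membrane gene that the rule did not use. Nkg7 stood at 3721 CPM in the 148 cells with 3 or more markers and at 1281 CPM in the 11 with exactly 2. Just outside, the 7 cells with a single marker (Ncr1 or Klrb1c) had 178 CPM. The 70 cells with 2 or more markers but neither Ncr1 nor Klrb1c had 43.5 CPM. The 67 cells that met the marker rule but held a Cd3 gene had 2179 CPM of Nkg7 and 185 CPM of Trac, the T cell receptor alpha constant gene. Of those 67, 55 fell in a cluster led by Trbv13-2 and Gzmk and 10 in the cluster that held most natural killer cells, both described further on. Finally, 2 Sham barcodes and no TBI barcode met the marker rule but were removed for hemoglobin UMIs above 5%.

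Summed over all 159 cells, genes that the rule did not use gave the profile of natural killer cells in both libraries. The members of 1 cluster described further on held less of this profile. Prf1, for example, was seen in 3 of 11 Sham and 4 of 20 TBI cells there. Of 20 further genes known from natural killer cells, all 20 were detected in both libraries and 19 had at least 30 UMIs. Nkg7 was measured at 3994 CPM in Sham and 3268 in TBI, Prf1 at 960 and 833, Gzmb at 1163 and 785. Il2rb, the receptor chain for interleukins 2 and 15, stood at 1233 and 1141 CPM. The signalling adapters Tyrobp (DAP12) and Fcer1g, which pass on signals of activating receptors, stood at 4067 and 3521 CPM and at 3828 and 3312 CPM. Cd4, Cd8a and Gzmk had no UMI in any of the 159 cells, which allows up to 3.57% of Sham and 4% of TBI cells with one, and Trac had 1 UMI in Sham and 3 in TBI. Transcripts of the T cell receptor beta constant genes were present, as Trbc1 (120 and 98.7 CPM) and Trbc2 (150 and 71.0 CPM), against 327 and 278 CPM of Trbc2 in T cells. At least 1 T cell receptor constant gene was seen in 40 of 84 and 27 of 75 natural killer cells and in 0 of 439 B cells of Sham, which allows up to 0.683%, and 1 of 414 of TBI.

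The 15 genes outside the rule that stood highest over all other filtered cells were ranked by the lower of the 2 libraries. They were Klra4, Gzmc, Klra8, Gzmb, Klrc2, Styk1, Klri2, Adamts14, Prf1, Klrb1a, Klra9, Eomes, Klra3, S1pr5 and Klre1. Klra8, which encodes Ly49H, an activating receptor known for recognising cytomegalovirus-infected cells, stood at 595 CPM in Sham against 0.793 in all other cells, and at 379 against 1.61 in TBI. Eomes, a T-box factor of natural killer cells, stood at 319 against 3.44 CPM in Sham and 245 against 3.95 in TBI. S1pr5, a sphingosine phosphate receptor used to leave bone marrow and lymph nodes, stood at 229 against 3.57 and 150 against 2.78 CPM. Gzmc was an exception in kind, since it was seen in only 5 Sham and 8 TBI cells, and 1 cell held 30 of its 36 UMIs in Sham and another 49 of 80 in TBI. These ratios describe how the chosen cells differ from the rest and were not tested.

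The leading genes lay mostly in a single stretch of the genome. The natural killer gene complex on mouse chromosome 6, which encodes lectin-like receptors, held 8 of the 15 leading genes between 128609227 and 130386874 (mm10). Of 23 Klr genes annotated in this stretch, 16 had at least 30 UMIs in the natural killer cells and 1, Klra17, had none. Klrb1c lay at chr6:128778485-128788641, with the inhibitory pair partner Klrd1 at chr6:129588092-129598775 and the Ly49 genes from Klra17 to Klra1 toward the far end. Among the Ly49 genes, Klra4 (532 and 454 CPM), Klra9 (548 and 446), Klra8 (595 and 379), Klra7 (415 and 332) and Klra3 (223 and 197) were the ones with the most UMIs. Klra2 and Klra17 had no UMI in either library. Ly49 genes are close copies of one another, so reads may have been split or lost among them and single members are uncertain.

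**Figure D1:**
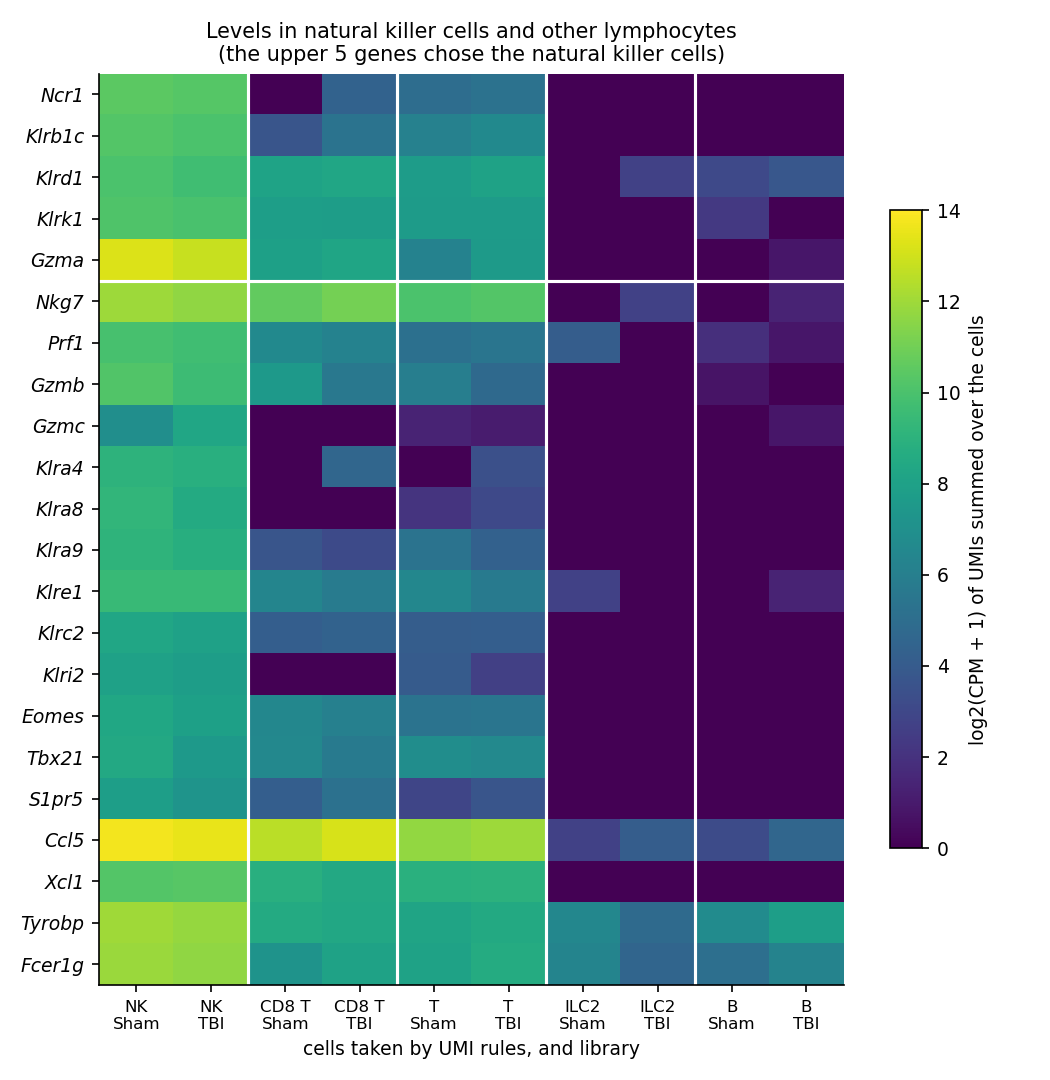
Levels of 22 genes, as log2(CPM + 1), in natural killer cells, CD8 T cells, T cells, group 2 innate lymphoid cells and B cells of the Sham and TBI libraries. The upper 5 genes chose the natural killer cells. Klra8 was at 0 in CD8 T cells and B cells of both libraries, while Nkg7 (1611 and 2136 CPM) and Ccl5 (6113 and 9148 CPM) were also seen in CD8 T cells.

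Other lymphocytes of the same libraries shared part of this profile. T cells (2 or more Cd3 genes, 141 Sham and 223 TBI cells), CD8 T cells among them (32 and 53), group 2 innate lymphoid cells (53 and 60) and B cells (439 and 414) were taken by UMI rules. Ccl5, a chemokine of cytotoxic lymphocytes, stood at 13706 and 11825 CPM in natural killer cells, 6113 and 9148 in CD8 T cells, and 8.18 and 23.8 in B cells. Nkg7 stood at 1611 and 2136 CPM in CD8 T cells, below the 3994 and 3268 of natural killer cells. Both genes were thus present in CD8 T cells as well, at lower levels. Prf1 stood further apart, with 99.3 and 71.7 CPM in CD8 T cells against 960 and 833. Klra8 was not detected in CD8 T cells, whose floor of 3 counts was 17.5 and 12.0 CPM. Tyrobp was at 380 and 331 CPM in CD8 T cells, against 4067 and 3521. Xcl1, a chemokine that attracts cross-presenting dendritic cells, stood at 1209 and 1303 CPM in natural killer cells and 468 and 505 in T cells.

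Detection per cell was compared after each cell was thinned to 1000 UMIs, which left out 6 Sham and 4 TBI natural killer cells. Nkg7 was then seen in 92.3% and 88.7% of natural killer cells. It was seen in 0 of 413 Sham and 0 of 386 TBI B cells, which allows shares of up to 0.726% and 0.777%. Ccl5 was seen in 89.7% and 87.3% of natural killer cells and in 0.726% and 1.04% of B cells, which should lack it and whose median depths before thinning were 3170 and 2713.5 UMIs. Without thinning the natural killer cell shares of Ccl5 were 89.3% and 90.7%. At least 1 Klra gene was seen in 70.5% and 66.2% of thinned natural killer cells and in 0.969% and 0.518% of B cells. All these shares stood far above the level in B cells.

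The natural killer cells fell into 2 groups when all filtered cells were clustered on genes other than the 11 of the rule. Of 25 clusters, 1 was led by Klra8, Klra4, Serpinb9b, Cdc20b and Phactr3, and it took 70 of the 84 Sham and 52 of the 75 TBI natural killer cells (83.3% and 69.3%). Of its 142 cells, 122 met the rule. A second cluster, led by Trbv13-2, Gzmk, Xcl1, Cd160 and Cd40lg and made up mostly of cells outside the rule (74 Sham, 141 TBI), took 11 Sham and 20 TBI natural killer cells. Another 5 lay together in a different cluster, and 1 TBI cell lay in a cluster led by Xcr1 and Cd209a, genes of dendritic cells. The groups are called the Klra8 cluster and the Gzmk cluster by these leading genes, and the differences between them are descriptions, because the clustering used the genes compared. None of the natural killer cells in the Gzmk cluster held a Gzmk UMI. The leading genes of that cluster also included Cd8a, Cd8b1 and Trgv2. T cell markers outside the rule summed to 581 and 475 CPM in its natural killer cells, against 375 and 246 in those of the Klra8 cluster. In cells of the Gzmk cluster outside the rule they summed to 2503 and 2142 CPM.

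The rule required Ncr1 or Klrb1c in every cell, so counts of its receptors are a description. Ncr1 was seen in 65 of 70 Sham and 49 of 52 TBI cells of the Klra8 cluster, and in 9 of 11 and 18 of 20 cells of the Gzmk cluster. Klrk1 was seen in 63 of 70 and 50 of 52 cells of the Klra8 cluster and in 10 of 11 and 20 of 20 of the Gzmk cluster. Gzma, another gene of the rule, was seen in 62 of 70 and 47 of 52 cells of the Klra8 cluster (11226 and 9553 CPM) and in 0 of 11 and 2 of 20 of the Gzmk cluster (0 and 428 CPM). Natural killer cells in the Gzmk cluster also held the adapter Tyrobp at 2207 and 2044 CPM, where the cells of that cluster outside the rule held 225 and 312 CPM.

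All 6 Ly49 receptors, all 10 genes of mature natural killer cells and 9 of 12 cytotoxic genes with at least 30 UMIs over these cells stood higher in the Klra8 cluster in both libraries. Of all 2925 genes with as many UMIs there, 30.1% did so and 24.9% stood higher in the Gzmk cluster in both. Of 46 genes of oxidative phosphorylation, 22 stood higher in the Klra8 cluster and 6 in the Gzmk cluster. Ctsw, a cathepsin of killer lymphocytes, stood higher in the Gzmk cluster, at 2033 and 1695 against 1166 and 1445 CPM, as did Srgn, and Cst7 was higher in a different cluster in each library. Prf1 stood at 1071 and 1070 CPM there and at 174 and 143 CPM in the Gzmk cluster, Gzmb at 1294 and 1044 against 232 and 63.4, and Ccl5 at 15287 and 14638 against 2498 and 4056. Klf2, a factor that keeps S1P receptors expressed in circulating lymphocytes, stood at 1067 and 669 CPM against 29.0 and 111. At least 1 Klra gene was seen in 67 of 70 Sham and 49 of 52 TBI cells of the Klra8 cluster, with a median of 3 Klra genes per cell and a maximum of 5 and 7. In the Gzmk cluster this held for 0 of 11 cells, which allows up to 27.3%, and for 3 of 20. Klra8, Klra4 and S1pr5 had no UMI there in either library, at floors of 87.1 and 47.5 CPM. Eomes, a factor commonly used to tell natural killer cells from group 1 innate lymphoid cells, was seen in 39 of 70 and 29 of 52 cells of the Klra8 cluster (352 and 310 CPM) and in 1 of 11 and 3 of 20 of the Gzmk cluster (87.1 and 63.4 CPM). Natural killer cell is the name the rule gives to the cells of both clusters. Ccl4, a chemokine of activated cells, stood at 2354 and 3730 CPM against 116 and 665.

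Of 7 genes of group 1 innate lymphoid cells and tissue residence with at least 30 UMIs, 5 stood higher in the natural killer cells of the Gzmk cluster in both libraries, beside 24.9% of all genes. So did 15 of 20 genes of MHC class I presentation and 13 of 25 interferon-induced genes. Of the other 2, Cd69 stood higher there in Sham (378 against 64.3 CPM) and had no UMI there in TBI (64.2 CPM in the Klra8 cluster), and Gzmc stood higher in the Klra8 cluster, at 129 and 353 against 58.1 and 222 CPM. Cxcr6, a chemokine receptor of resident lymphocytes, was seen in 7 of 11 Sham and 14 of 20 TBI cells there (871 and 887 CPM), and in 7 of 70 and 2 of 52 cells of the Klra8 cluster (148 and 21.4 CPM). Cd226, the activating receptor DNAM-1, stood at 436 and 269 CPM against 53.0 and 21.4. The paired genes Tmem176a and Tmem176b stood at 552 and 491 CPM and at 871 and 602 CPM, against 79.5 and 32.1 and 75.7 and 91.0 in the Klra8 cluster. Tmem176b was low, at 21.9 and 28.2 CPM, in the cells of the Gzmk cluster outside the rule. Ltb (lymphotoxin beta) stood at 1336 and 903 CPM against 242 and 289, and Xcl1 at 2439 and 2566 against 1060 and 894. At least 1 of Itga1, Cxcr6, Il7r, Tnfsf10 and Cd200r1, fixed as markers of group 1 innate lymphoid cells, was seen in 10 of 11 and 16 of 20 cells, against 12 of 70 and 7 of 52. T cells carried at least 1 of the same 5 in 85.8% and 87.9% of cells, so these markers do not set the cells apart from T cells. In cells thinned to 1000 UMIs the shares were 66.7% and 50% in the Gzmk cluster, 10.3% and 9.62% in the Klra8 cluster and 6.54% and 10.9% in B cells.

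**Figure D2:**
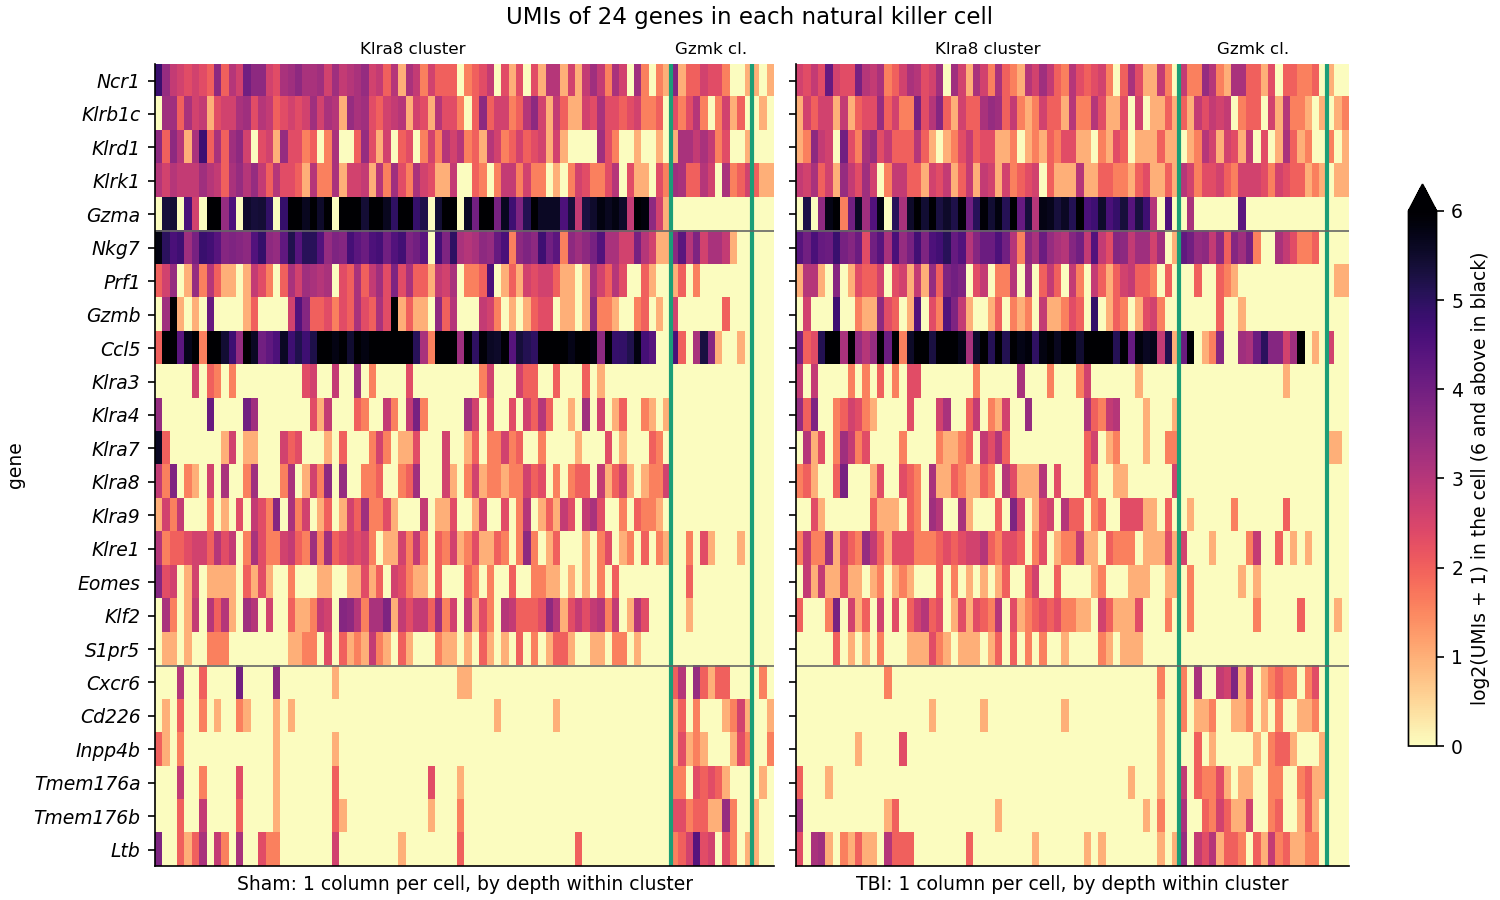
UMIs of 24 genes in each natural killer cell, 1 column per cell, as log2(UMIs + 1), with Sham on the left and TBI on the right and cells ordered by cluster and then depth. UMIs of Gzma, Prf1 and, in differing combinations, the Klra genes lie mostly in the columns of the Klra8 cluster (70 and 52 cells), while Cxcr6, Cd226 and the Tmem176 genes fill more of those of the Gzmk cluster (11 and 20 cells).

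Natural killer cells made up a smaller share of the TBI library than of the Sham library. They were 84 of 2043 filtered cells in Sham (4.11%, exact binomial interval 3.29 to 5.07%) and 75 of 3773 in TBI (1.99%, 1.57 to 2.49%). The difference was -2.12 percentage points (-3.17 to -1.17), and no replicate shows how far such shares vary between pools of animals. The share was lower for natural killer cells of the Klra8 cluster, with 3.43% of Sham cells (2.68 to 4.31%) and 1.38% of TBI cells (1.03 to 1.80%). Natural killer cells of the Gzmk cluster took 0.538% (0.269 to 0.961%) and 0.530% (0.324 to 0.817%), a difference of -0.00834 points (-0.479 to 0.386). That interval, from 11 and 20 cells, is wide beside the shares themselves, so a change in the Gzmk cluster could have been missed. The clusters were made with genes such as Klra8 and Gzmb whose levels also differed between the libraries, so the split of the share between them is a description. As a part of all natural killer cells, the Gzmk cluster thus took 13.1% in Sham (6.72 to 22.2%) and 26.7% in TBI (17.1 to 38.1%).

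A share depends on the cells it is set against. Fibroblasts were 5.34% of the Sham and 20.0% of the TBI cells, and macrophages 17.5% and 21.2%. Among cells with a UMI of Ptprc, the pan-leukocyte gene, natural killer cells were 7.61% in Sham and 4.41% in TBI. Among natural killer, T and group 2 innate lymphoid cells they were 30.2% and 20.9%. The share of T cells was 6.90% and 5.91%, a difference of -0.991 points whose interval (-2.39 to 0.338) included 0, and B cells were 21.5% and 10.97%. Group 2 innate lymphoid cells were also a smaller share of TBI, at 2.59% and 1.59%, a difference with an interval of -1.87 to -0.22 points. Live cells were sorted before capture and only shares, not cell numbers per animal, can be read from the libraries.

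**Figure D3:**
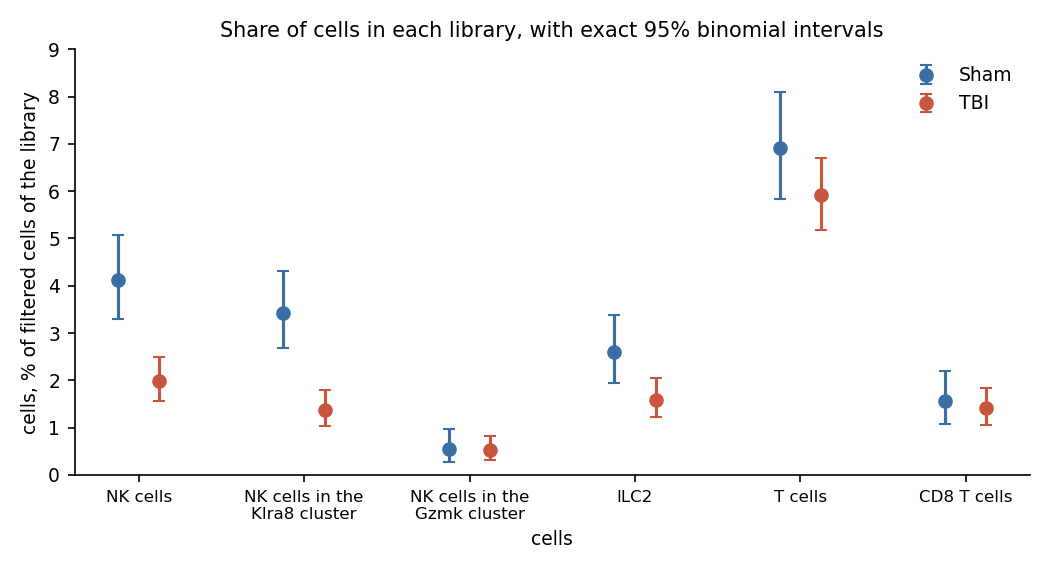
Share of filtered cells, in percent, in the Sham and TBI libraries, with exact 95% binomial intervals (counting error only, 1 library per group). Natural killer cells were 4.11% and 1.99%. Those of the Klra8 cluster were 3.43% and 1.38%, and those of the Gzmk cluster, only 11 and 20 cells, were 0.538% and 0.530%.

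Most gene levels of natural killer cells differed by less than 2-fold between the libraries. Of 2967 genes with at least 30 UMIs over both, 45 (1.52%) were 2-fold or more higher in TBI and 52 (1.75%) 2-fold or more lower, by size alone and with no test. The median log2 ratio of TBI over Sham was -0.02, and 47.4% of the genes were above 0 and 52.6% below. The counting interval of the ratio lay above 0 for 108 genes (3.64%) and below 0 for 126 (4.25%). The 6 highest genes with at least 50 UMIs were H2-Aa, H2-Eb1, Cd74, H2-Ab1, Ccl3 and Ifi27l2a, and the 6 lowest were Hba-a2, Hba-a1, Hbb-bs, Klra1, Mat2a and Fip1l1. The UMIs of several of these genes lay mostly in 1 cell, and others are genes of red cells or antigen-presenting cells.

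**Figure D4:**
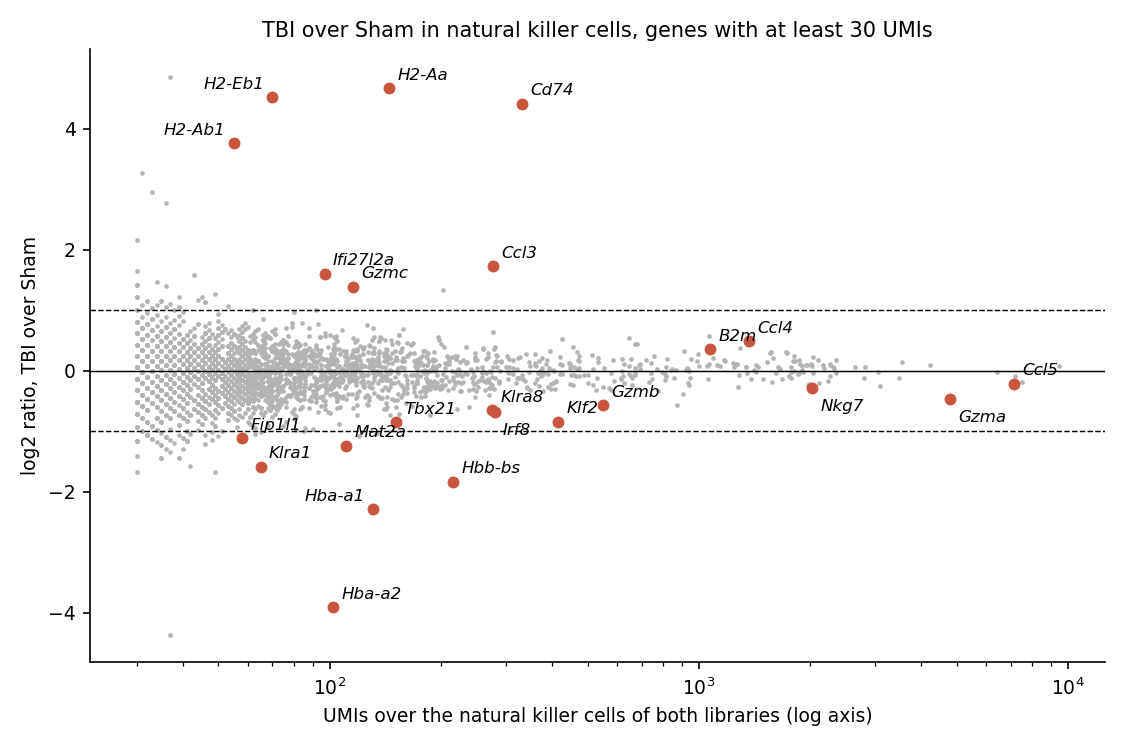
Log2 ratio of TBI over Sham in natural killer cells for 2967 genes, against the UMIs of the gene on a log axis, with the genes named in the text labelled. Most genes lie near the median of -0.02. Among genes with at least 50 UMIs, the named MHC class II genes and Cd74 lie furthest above it and the named hemoglobin genes furthest below.

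The MHC class II genes, which present antigen in dendritic cells, macrophages and B cells, were counted mostly in 1 TBI cell. H2-Aa had 6 UMIs in Sham and 139 in TBI, a log2 ratio of 4.67 (3.62 to 6.25), and Cd74, the invariant chain, had 17 and 314. The deepest TBI natural killer cell, with 12597 UMIs and a high doublet score, held 91 of the 139 H2-Aa UMIs, 46 of the 51 of H2-Ab1, 182 of the 314 of Cd74 and 67 of the 70 of Ifi27l2a. It held 5 UMIs of Ncr1 and none of Gzma. The TBI cell in the cluster led by Xcr1, with 1843 UMIs, held another 32 H2-Aa and 91 Cd74 UMIs. Without the cell of each library with the most UMIs of the gene, the log2 ratio was 3.73 for H2-Aa, 0.96 for H2-Ab1 and -0.35 for Ifi27l2a, an interferon-induced gene. H2-Aa was seen in 12 TBI cells, the deepest among them, and in 4 Sham cells, and T cells of the Sham library held it at 211 CPM, those of the TBI library at 1294. Its ratio was -5.07 in group 2 innate lymphoid cells, -0.28 in B cells and -0.02 in macrophages. Dendritic cell markers as a list summed to 2285 CPM in TBI and 99.7 in Sham, with Cd74 the one with most UMIs and 3 and 5 of the 9 at 0.

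Red cell transcripts stood out in the other direction. The 4 hemoglobin genes summed to 1396 CPM in Sham and 261 in TBI, with Hbb-bs (581 and 162 CPM) holding most UMIs. Hbb-bs was also higher in Sham among B cells (706 and 171 CPM) and T cells (849 and 98.1 CPM). Markers of fibroblasts and endothelium summed to 53.2 and 446 CPM, led by Igfbp5 with 4 and 29 UMIs. Igfbp5 stood at 8.18 and 178 CPM in B cells as well. Col1a1, a collagen gene, had 0 and 29 UMIs. Macrophage markers summed to 143 and 359 CPM with Ctsb (35 and 29 UMIs) and Lyz2 (5 and 31) the genes with most UMIs and with 5 of the 10 at 0 in Sham and none in TBI. B cell markers, nearly all of them Ighm, summed to 153 and 166 CPM, and neutrophil and mast cell markers, mostly Cma1, to 209 and 201 CPM. Cma1 is also in the list of genes of mature natural killer cells, and among the cells of the 2 clusters all of its UMIs (57 and 41) lay in the Klra8 cluster. Markers of T cells summed to 399 and 300.0 CPM and those of group 2 innate lymphoid cells to 226 and 241 CPM. The part of these transcripts in the differences reported next was not tested.

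From here on, pairs of values give TBI first and Sham second. Genes of cell killing differed by gene. Of 13 cytotoxic genes outside the rule with at least 30 UMIs over all natural killer cells, 6 had a ratio above 0 and 7 below, with a median of -0.08 against -0.02 over all genes (0.24 after thinning, -0.44 without the 6 genes required at 0, and 8.44e-05 within the Klra8 cluster). Gzmc had the highest ratio of the list, at 316 CPM in TBI against 120 in Sham (1.39, 0.82 to 2.01, or 2.52 without the top cells). It was seen in only 8 TBI and 5 Sham cells. Gzmb was lower in TBI, at 785 against 1163 CPM in Sham, a log2 ratio of -0.56 (-0.82 to -0.31). A single Sham cell held 80 of the 350 Sham UMIs of Gzmb, and another held 68. Within the Klra8 cluster the ratio was -0.31, while Gzmb was seen there in 35 of 52 TBI and 47 of 70 Sham cells (67.3% and 67.1%). Prf1 was at 833 and 960 CPM, with an interval that included 0 (-0.47 to 0.06). Serpinb6b and Serpinb9, inhibitors that protect killer cells from granzymes, stood at 154 CPM in TBI and 316 in Sham and at 237 and 356 CPM. Within the Klra8 cluster the ratios were -0.95 (-1.59 to -0.36) for Serpinb6b and -0.29 (-0.79 to 0.19) for Serpinb9. Ctsw was higher in TBI, at 1496 against 1256 CPM (0.25, 0.04 to 0.46, or 0.20 and -0.02 to 0.41 without the top cells). Gzma, a gene of the rule, was at 7152 CPM in TBI and 9855 in Sham, a ratio of -0.46 in all natural killer cells and -0.23 in the Klra8 cluster. Gzmb was lower in the TBI library of CD8 T cells too, at 47.8 against 187 CPM.

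Secreted factors included higher and lower genes. Of 9 cytokines and chemokines with at least 30 UMIs, 7 were above 0 and 2 below, with a median of 0.25, which was -0.21 when the 6 genes of other lymphocytes and macrophages were not required to be absent. Ccl3 stood at 805 CPM in TBI and 243 in Sham, a log2 ratio of 1.72 (1.34 to 2.14), but it was seen in 14 TBI and 21 Sham cells. A single TBI cell of 1869 UMIs held 102 of the 204 Ccl3 UMIs and 331 of the 739 Ccl4 UMIs, so 23.2% of its UMIs were of these 2 genes. Another TBI cell, of 1468 UMIs, held 88 more Ccl3 and 205 more Ccl4 UMIs. Without the top cell of each library the ratio of Ccl3 was 1.29 (0.79 to 1.82), and that of Ccl4, at 0.49 (0.33 to 0.64) in all cells, was 0.11 (-0.09 to 0.31). These values still include that other TBI cell, and no ratio was taken without both cells. When the 6 genes of other lymphocytes and macrophages were not required to be absent, Ccl3 stood at 0.0071 and Ccl4 at -0.52. Over the whole Klra8 cluster in place of the rule the ratio of Ccl3 was 0.63. Ccl5 was at 11825 CPM in TBI and 13706 in Sham (-0.21), but at -0.06 (-0.13 to 0.01) within the Klra8 cluster and 0.69 (0.34 to 1.07) within the Gzmk cluster. Xcl1 was at 1303 and 1209 CPM (0.11, -0.11 to 0.33), with a ratio of -0.24 within the Klra8 cluster, and Ifng, interferon gamma, at 90.8 and 79.7 (0.19, -0.70 to 1.07).

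**Figure D5:**
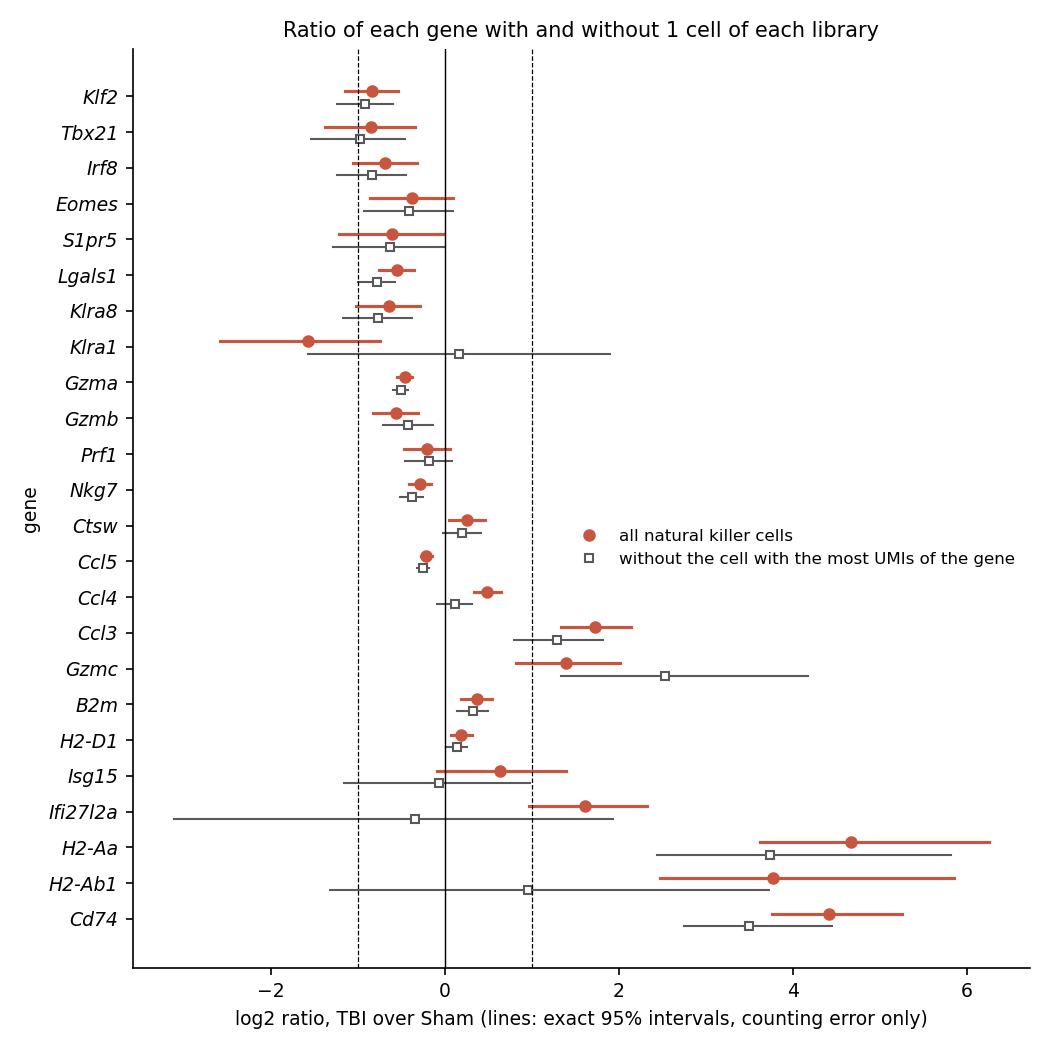
Log2 ratio of TBI over Sham for 24 genes in all natural killer cells (filled circles, with exact 95% intervals for counting error) and after the cell of each library with the most UMIs of that gene was left out (open squares). The ratio of Klf2 stays near -0.84, while those of Klra1, Ifi27l2a and H2-Ab1 move toward 0 or past it.

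Of 10 genes of mature natural killer cells with at least 30 UMIs, 1 was above 0 and 9 below, beside 52.6% of all genes. Of the 9, 4 had an interval below 0, beside 4.25% of all genes. The median log2 ratio of the 10 genes was -0.39. The Klra8 cluster, where these genes stood higher, held 69.3% of TBI and 83.3% of Sham natural killer cells, and within it the median was -0.20. Klf2, which is not among these 10 genes, stood at 525 CPM in TBI and 940 in Sham, a ratio of -0.84 (-1.15 to -0.54). No single cell decided this, since without the top cells the ratio was -0.91, and within the Klra8 cluster it was -0.67 (-0.99 to -0.37). In T cells and B cells of the same libraries Klf2 had log2 ratios of -0.37 and -0.32, and in CD8 T cells 0.28. S1pr5 stood at 150 and 229 CPM (-0.60, -1.22 to -0.02) and Lgals1, galectin 1, at 1255 and 1847 CPM (-0.56). Within the Klra8 cluster the ratios were -0.35 (-0.97 to 0.23) for S1pr5 and -0.38 (-0.59 to -0.17) for Lgals1. Of 11 genes of less mature cells, 6 were above 0 and 5 below, with a median of 0.11.

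Of 16 transcription factors with at least 30 UMIs, 5 were above 0 and 11 below, with a median of -0.22 (0.19 after thinning to 1000 UMIs). Tbx21, which encodes T-bet, was at 189 CPM in TBI and 342 in Sham, a log2 ratio of -0.85 (-1.38 to -0.35), and was seen in 40.0% and 66.7% of cells (18.3% and 32.1% of cells thinned to 1000 UMIs, and 0 of 413 Sham and 0 of 386 TBI thinned B cells). The ratio was -0.83 within the Klra8 cluster, -0.84 in CD8 T cells (-2.03 to 0.30) and -0.29 in T cells as a whole. Irf8, a factor that natural killer cells use in responses to virus, was at 379 and 611 CPM (-0.69, -1.06 to -0.33), and at -0.55 within the Klra8 cluster. In CD8 T cells Irf8 had a ratio of -1.33 and in B cells one of -0.01. Eomes, at 245 and 319 CPM, had an interval that included 0 (-0.87 to 0.09), as did Zeb2 (-0.62, -1.31 to 0.03). Id2, needed for innate lymphoid development, was at 1196 and 1219 CPM.

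All 6 Ly49 genes with at least 30 UMIs were below 0, beside 52.6% of all genes. An interval below 0 was found for 2 of the 6, beside 4.25% of all genes. The median of the 6 was -0.31 (-0.11 within the Klra8 cluster), and the list of 11 summed to 1891 CPM in TBI and 2512 in Sham. Klra8 was at 379 and 595 CPM (-0.65, -1.02 to -0.28) and was seen in 41.3% and 57.1% of cells, or 22.5% and 39.7% of thinned cells. Within the Klra8 cluster its ratio was -0.40. Klra1, with 14 UMIs in TBI and 51 in Sham, was seen in 6 cells of each library, and a single Sham cell held 44 of the 51. Without the top cells its log2 ratio was 0.16 in place of -1.58. The Sham cell with most Klra1 UMIs, which was also the deepest Sham cell, held 37.6% of the Sham UMIs of Klra7 too. The ratio of Klra7 was -0.32, but 0.10 without the top cells, 0.10 as the mean over cells and 0.31 without the deepest cells. That of Klra4 was 0.025 within the Klra8 cluster. Of 15 other receptors, 3 were above 0 and 12 below, 1 of these with an interval below 0 (median -0.20, or -0.067 with 3 of the 5 markers required). Of 18 adapters and proximal signalling genes 2 were above 0 and 16 below, 4 of these with an interval below 0 (median -0.20). Beside both lists, 52.6% of all genes were below 0 and 4.25% had an interval below 0. Klrc1 (NKG2A) and Klre1 differed little, at 418 and 432 CPM and 679 and 698 CPM. The 19 further natural killer genes had a median of -0.21, with 3 above 0.

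Of 20 genes of MHC class I presentation, 12 were above 0 and 8 below, with a median of 0.12, none was past 2-fold, and 2 had an interval above 0, beside 3.64% of all genes. B2m, the light chain of every class I molecule, stood at 2206 CPM in TBI and 1715 in Sham (0.36, 0.19 to 0.54), and at 0.25 within the Klra8 cluster. H2-D1 stood at 4547 and 3994 CPM (0.19, 0.07 to 0.30). B2m had a ratio of 0.24 in B cells and -0.04 in T cells. Of 26 interferon-induced genes, 16 were above 0 and 10 below, with a median of 0.17. The median was 0.038 without the deepest cell of each library and 0.023 for the mean over cells, and 1 of the 26 had an interval above 0, Ifi27l2a, whose TBI UMIs came almost all from 1 cell. Isg15 had 38 UMIs in TBI and 29 in Sham, and 1 TBI cell held 23 of the 38.

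Receptors that guide cells into tissue differed by gene. Of 16 trafficking genes 7 were above 0 and 9 below (median -0.09), and of 18 cytokine receptor genes 7 were above 0 and 11 below (median -0.07). Cxcr3, the receptor for interferon-induced chemokines, was higher in TBI at 197 against 113 CPM (0.80, 0.15 to 1.48), although UMIs of it were seen in 16.9% and 14.1% of thinned cells, a smaller gap than the 41.3% and 27.4% before thinning. The ratio was 0.037 over the whole Klra8 cluster in place of the rule. Its ratio was 0.39 within the Klra8 cluster, where it stood at 134 CPM in TBI and 102 in Sham, against 396 and 203 CPM in the Gzmk cluster. Of 7 genes of group 1 innate lymphoid cells and tissue residence, 4 were above 0 and 3 below (median 0.01). Gzmc, seen in 8 TBI and 5 Sham cells, had the highest ratio of them, at 1.39 (0.82 to 2.01). Cxcr6 stood at 237 and 236 CPM. Cd69, an early activation marker that also holds cells in tissue, was at 47.4 CPM in TBI and 99.7 in Sham (-1.04, -2.17 to -0.07), with 9 of its 12 TBI UMIs in 1 cell and a ratio of -2.54 without the top cells. Of 19 activation genes, 10 were above 0 and 9 below, with a median of 0.01.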

How the data were processed

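The data were the filtered UMI count matrices of 2 droplet libraries (10x Genomics Chromium), 1 per group, each from 5 pooled mice. The authors made the deposited counts with Cell Ranger (version 2.1.1 in the submitters' processing notes, 3.1.0 in the matrix headers, an earlier one than both in the study's methods) on mm10. The gene annotation release was not given in the sources used. The same notes name Seurat 3.9.9 and DESeq2 1.30.0, which were not used here because such models take each cell as a replicate. Cells with 150 to 5000 genes, at most 20% mitochondrial and at most 5% hemoglobin UMIs were kept. The hemoglobin limit alone removed 289 Sham and 174 TBI barcodes. Of the 32285 genes, rows of the 38 symbols that occur more than once were kept apart by identifier.

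UMIs were summed per library over the natural killer cells. Ratios are log2 ratios of CPM with 0.5 added to each sum, for genes with at least 30 UMIs over both libraries. With 1 library per group no model was fitted and no p-value is given. Intervals are exact Poisson, Clopper-Pearson or conditional binomial. Those of a difference between shares are approximate, with the distances to the Clopper-Pearson bounds of both shares squared, added and rooted. Clusters were Leiden communities (resolution 0.8, 2000 variable genes, 20 components, 20 neighbours) made without the 11 rule genes. Doublets were scored with Scrublet in scanpy. Its automatic limit marked only 2 Sham and 4 TBI cells (0.0979% and 0.106%) and so had not worked, and the 34 and 114 cells with the highest scores were removed as an alternative. Among them were 0 Sham and 4 TBI natural killer cells.

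The members and gene lists were chosen with earlier results of these data known, and some genes stand in more than 1 list. The text names the rule genes, list genes with the highest level or the largest ratio, the 15 genes that led over all other cells (at least 50 UMIs), and the 6 genes with the largest ratio each way (at least 50 UMIs). Serpinb9b, Cdc20b and other cluster leaders, and Cd226, Inpp4b, Tmem176a and Tmem176b between the clusters, were named after their values were seen. Scripts were tested on simulated counts. Tools were Python 3.11.15, numpy 2.4.6, scipy 1.17.1, pandas 2.3.3, scanpy 1.11.5, igraph 0.11.9 and matplotlib 3.10.9.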

Additional observations from a re-analysis of the deposited data

How the results depend on the processing

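No paired analysis was possible because each group is 1 library, and for the same reason no replicate could be left out. The share of natural killer cells was lower in TBI under each alternative run. It differed by -3.20 points among Ptprc-positive cells and by -9.27 points among natural killer, T and group 2 innate lymphoid cells, and by -1.79 to -2.49 over all cells. Counts of genes past 2-fold moved with several settings. Higher genes numbered 246 after thinning to 1000 UMIs, 21 without the 6 genes required at 0, 318 with 10 UMIs as the minimum and 5 with 100. Lower genes numbered 262, 23, 358 and 6 in the same order, 105 for the mean over cells and 90 for natural killer cells of the Klra8 cluster. List medians moved as follows. Without the 6 genes required at 0, Ly49 genes stood at -0.73, other receptors at -0.39, cytotoxic genes at -0.44, cytokines and chemokines at -0.21 and mature genes at -0.64. In the Klra8 cluster alone, Ly49 genes stood at -0.11, cytotoxic genes at 8.44e-05 and mature genes at -0.20. With 3 of the 5 markers required, other receptors stood at -0.067 and cytotoxic genes at -0.17, and with a minimum of 10 UMIs other receptors stood at -0.049 and mature genes at -0.22. With the mean over cells, cytotoxic genes stood at 0.076, cytokines and chemokines at 0.63, interferon-induced genes at 0.023 and class I genes at 0.18. After thinning, cytotoxic genes stood at 0.24, cytokines and chemokines at 0.51 and class I genes at 0.18. Cytokines and chemokines stood at 0.33 both without predicted doublets and without the deepest cells, and interferon-induced genes at 0.038 without the deepest cells. With the whole Leiden cluster in place of the rule, cytokines and chemokines stood at 0.093, mature genes at -0.18 and interferon-induced genes at 0.35. Klra1 changed sign for the mean over cells (0.12), after thinning (0.43), without the deepest cells (1.15) and without its top cells (0.16). Ifi27l2a did so in the same alternatives (-0.10, -0.49, -2.61 and -0.35) and without predicted doublets (-2.59). Of 48 genes followed, 34 kept their sign in each alternative, Klf2, Tbx21, Irf8, Gzmb and B2m among them. The other 14 included Ccl4 (-0.52 without the genes required at 0), Prf1, Eomes and Isg15. The alternatives without a gene's top cells, over the Klra8 cluster alone and without the cell in the cluster led by Xcr1 were chosen after seeing the data. Causes of these shifts were not tested.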

Other observations

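Housekeeping programmes of the natural killer cells were also followed. Of 46 nuclear genes of oxidative phosphorylation 21 had a log2 ratio of TBI over Sham above 0 and 25 below (median -0.02), and of 11 glycolytic genes 8 were above and 3 below (median 0.06), with Gapdh at 576 CPM in TBI and 558 in Sham. Of 12 heat shock genes 3 were above and 9 below (median -0.11), with Hspa8, a chaperone, at 2562 and 2814 CPM. Among cell cycle genes, Mki67 and Top2a were hardly seen, while H2afz was seen in 67 of 75 TBI and 72 of 84 Sham cells. Mki67 had 0 UMIs in TBI and 2 in Sham and Top2a 0 and 3, both at or under the floor of 3 counts, and 12 and 6 of the 21 cell cycle genes had no UMI. Of the 7 cell cycle genes with at least 30 UMIs, 1 was above 0 and 6 below (median -0.30, or 0.042 without the deepest cell of each library), with H2afz, a histone variant, at 1397 CPM in TBI and 1831 in Sham.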
